A study of Oryctolagus cuniculus with 8 samples.

Results

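The CD nomenclature numbers the surface molecules of leukocytes and other cells by the antibodies that bind them, and many of these molecules keep their CD number as the gene symbol. The genes described here are the 40 of 20922 entries of the deposited table whose name occurs once and consists of CD, a number and at most 1 letter. CD34, CD74, CD79A, CD79B, CD83, CD8B and CD247 were left out by the same rule, of which 6 stand in the table among the 46 names of this form. The rule refers to names and to no measured value. The antigens mark T cells, natural killer (NK) cells, B cells, myeloid cells and vessels, and they also include tetraspanins, complement regulators and adhesion molecules that epithelial cells carry.

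The study sorted cells of the rabbit limbus, the rim between cornea and conjunctiva, with the DNA dye Hoechst. It compared side population (SP) cells, which export the dye and stay dim, with the remaining non-SP (NSP) cells. All rabbits were New Zealand white, an albino breed, weighed 2.5 to 3.0 kg, and carried no treatment or allele that the labels name. Total RNA was sequenced on an Ion Proton instrument as 4 SP and 4 NSP libraries, with 15553295 to 18931836 exon reads per SP library and 20445565 to 23529101 per NSP library, a difference in depth without overlap (exact two-sided permutation test, p = 0.029, the smallest p that 4 against 4 allows).

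Surface antigens of this kind work as receptors, ligands or scaffolds at the cell membrane. T and NK cell receptors read peptide complexes, co-stimulatory ligands or stress ligands on other cells, and antigen-presenting cells carry the partners of these receptors. Tetraspanins organise other proteins into membrane microdomains, while complement regulators and CD47 protect a cell from lysis or phagocytosis. The limbal epithelium holds the stem cells of the corneal surface, and the limbus also holds vessels, melanocytes, Langerhans cells and lymphocytes.

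Levels are given as CPM, exon reads scaled to a common library total, with the SD over 4 libraries per group. Libraries are numbered in the order of the table's columns, which name the group and no sample. A log2 fold change is the SP level over the NSP level, given with its standard error from limma-voom, a linear model over all tested genes, two-sided, with Benjamini-Hochberg adjustment over 10012 genes and a threshold of 0.05. The labels name no animal for any library. The p-values therefore cover only how these samples vary, and that variation may be technical. In bulk RNA of sorted cells, fewer cells of a type and less RNA per cell cannot be told apart. Several cell types moved with the groups. The 7 listed epithelial marker genes summed to 529.9 to 5911 CPM in SP and 17795 to 35443 CPM in NSP, and all 7 passed the test as lower in SP. The sums ran the other way for T cell markers (3 of 5 listed genes in the table; 362.4 to 1115 CPM in SP, 0.0462 to 1.40 in NSP) and B and plasma cell markers (4 of 6; 225.8 to 696.8 and 0 to 0.9). Myeloid markers (4 of 5) summed to 745.3 to 2183 CPM in SP and 7.25 to 15.5 in NSP, and endothelial markers (5 of 5) to 995.1 to 9347 and 0.387 to 1.60. MS4A1, the B cell antigen CD20, and MZB1, a plasma cell gene, had no NSP read. What these cell types contribute to the differences in the antigens was not tested.

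Among the 40 antigens, 24 were higher in SP and none was lower. Of all 10012 tested genes, 17.7% were called higher and 13% lower. The 40 antigens together took 4848 to 6573 CPM in the SP libraries and 1993 to 2923 CPM in the NSP libraries, without overlap. Every SP library stood above every NSP library in 24 of the 33 tested antigens, against 18.8% of tested genes, and no antigen lay below in every SP library, against 14%. Fitted changes were above 0 in all 33 tested antigens, so none was lower at an unadjusted p under 0.05 either, and limma-trend and voom with quality weights also called none lower. The scaling matters for the smallest changes. Over all tested genes the median log2 fold change was 0.12, against 0.00 with median-ratio factors and -0.06 with upper-quartile factors, and the share of higher genes among all calls was 57.7%, 51.0% and 46.9%.

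These counts need the filter beside them. The remaining 7 antigens were not tested, 3 of them without a read in any library (CD1A, CD302 and CD5L; 3 reads over a group would be 0.0424 CPM in SP and 0.0354 CPM in NSP). CD1B, CD1C, CD1E and CD36 had reads but too few. Of the 33 tested, 18 were over the minimum of 0.508 CPM in fewer than 4 NSP libraries, and so needed SP libraries to pass the filter. For 12 of them no NSP library was over the minimum, and such genes were very likely to be called: of the 288 tested genes that exceeded the minimum in no NSP library, 98.3% were called higher. The 15 antigens over the minimum in all 8 libraries give a fairer view, with 7 higher, none lower and a median log2 fold change of 0.91. Among the 7995 genes of the table with that property, 14.7% were higher and 12% lower, with a median of 0.11. CD36, with 3 libraries over the minimum, lay just outside the filter, and CD46, with 5, just inside.

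**Figure D1:**
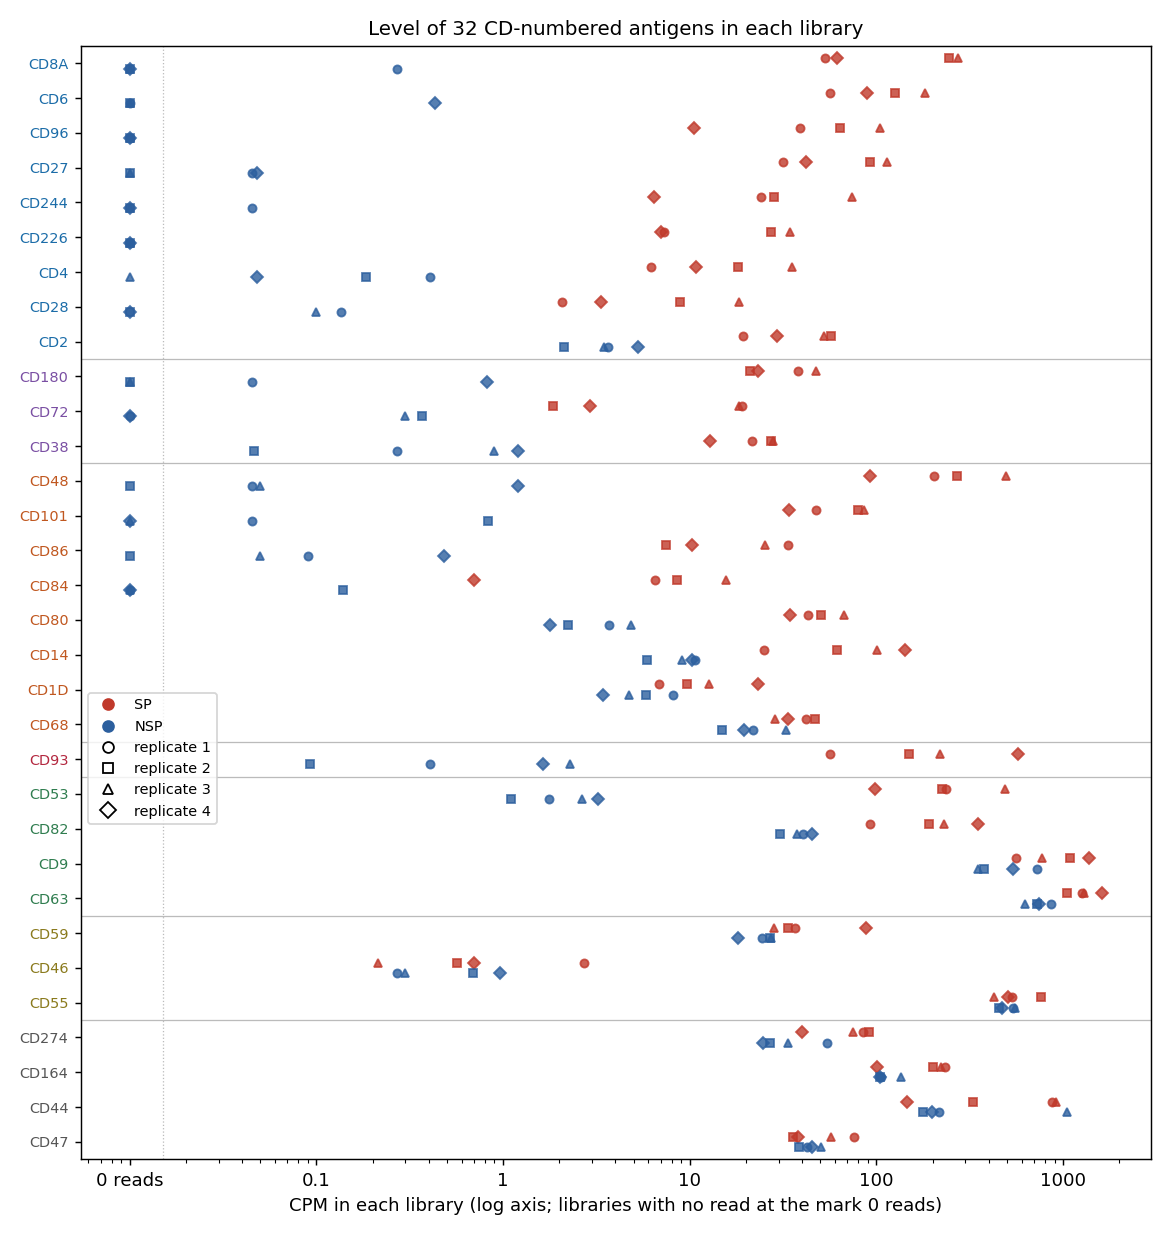
Level of 32 of the 33 tested antigens in each of the 8 libraries, in CPM on a log axis, grouped by role, with SP in one colour and NSP in the other and libraries without a read at the mark 0 reads. Antigens of T, NK and B cells separate the groups without overlap, while CD9, CD55, CD44, CD47 and CD68 overlap.

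All 9 receptors of T and NK cells among the antigens were higher in SP, and their summed level was 239.4 to 890.0 CPM in SP against 2.31 to 5.80 CPM in NSP. Of all tested genes 17.7% were higher, but only 1 of the 9, CD2, was over the minimum in all 8 libraries. The others needed SP libraries to pass the filter. CD8A, the alpha chain of the co-receptor of cytotoxic T cells, stood at 53.2, 245, 275 and 61.5 CPM in SP replicates 1 to 4 and at 0.27, 0, 0 and 0 CPM in NSP replicates 1 to 4. SP replicates 2 and 3 were well above replicates 1 and 4, and the groups lay far apart. The log2 fold change was 11.42 ± 2.07 (limma-voom adjusted p = 0.00259), and all 6 NSP reads fell in replicate 1. CD4, the co-receptor of helper T cells and of some myeloid cells, stood at 6.2, 18.1, 35.2 and 10.9 CPM in the SP libraries, a mean of 17.6 ± 12.7 CPM, against 14 NSP reads in all (7.02 ± 1.39, limma-voom adjusted p = 0.00403).

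CD6, a scavenger-receptor protein of the T cell synapse, followed CD8A. Its SP libraries held 56.5, 126, 182 and 89.0 CPM and its NSP libraries 0, 0, 0 and 0.435 CPM, so that all 9 NSP reads came from replicate 4 (log2 fold change 11.04 ± 1.40, limma-voom adjusted p = 0.000424). CD27, a TNF receptor of memory T and B cells, stood at 31.8, 92.2, 114 and 42.2 CPM in SP against 2 NSP reads in all. The ratio of its reads pooled over each group was 3050.3, with an exact 95% counting interval of 844 to 25194 (limma-voom adjusted p = 0.000604). Replicates 3 and 2 again led the SP group. CD28, the co-stimulatory receptor for CD80 and CD86, stood at 8.19 ± 7.45 CPM over the SP libraries and 0.0587 ± 0.0693 CPM over the NSP libraries (6.71 ± 1.40, adjusted p = 0.00527).

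CD226 and CD96 are paired receptors of T and NK cells that bind the same family of nectin-like ligands, the first activating. CD96 held 38.8, 63.5, 105 and 10.5 CPM in SP and CD226 7.28, 27.1, 34.4 and 7.03 CPM, with no read of either in any NSP library. With the mean SP level set against a floor of 3 reads over the NSP group, CD96 was at least 1534-fold and CD226 at least 535-fold higher in SP (limma-voom adjusted p = 0.00249 and 0.0011). CD244, a SLAM family receptor of NK and cytotoxic T cells that binds CD48, had 1 NSP read and 24.2, 28.4, 73.9 and 6.47 CPM in SP, a ratio of 2947 (95% counting interval 528 to 116438, adjusted p = 0.00281). CD96 and CD244 were lowest in SP replicate 4, by a wide margin.

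CD2, the adhesion receptor of T and NK cells, differed from the other members of its list in its NSP level. It stood at 19.4, 56.9, 52.3 and 29.2 CPM in the SP libraries and 3.64, 2.12, 3.49 and 5.27 CPM in the NSP libraries, with a read count over the minimum in all 8 libraries. The groups did not overlap, and the log2 fold change was 3.39 ± 0.55 (limma-voom adjusted p = 0.00148). CD2 held 89.2% of the 343 NSP reads of the 9 T and NK antigens, but 7.58% of the 37579 SP reads. The source of these CD2 reads in NSP was not tested.

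All 4 receptors of the B lineage were higher in SP, summing to 64.9 to 158.5 CPM in SP and 0.6 to 2.42 CPM in NSP. Of all tested genes 17.7% were higher, but none of the 4 was over the minimum in all 8 libraries. All of them needed SP libraries to pass the filter. CD180, a Toll-like receptor homologue of B cells and some myeloid cells, held 37.8, 21.1, 47.5 and 23.1 CPM in the SP libraries and 0.045, 0, 0 and 0.821 CPM in the NSP libraries, where 17 of its 18 reads came from replicate 4. Its groups did not overlap (log2 fold change 8.67 ± 1.19, limma-voom adjusted p = 0.000614). CD38, the NAD-consuming ectoenzyme of plasma cells and activated lymphocytes, varied least of the B-lineage antigens among the SP libraries, at 21.5, 27.2, 28.0 and 12.9 CPM against 0.27, 0.0462, 0.898 and 1.21 CPM in NSP (5.83 ± 0.89, adjusted p = 0.00105).

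CD72, an inhibitory lectin of B cells, was high in only some SP libraries. It stood at 19.2, 1.86, 18.4 and 2.92 CPM in the SP libraries and 0, 0.369, 0.299 and 0 CPM in the NSP libraries. Replicates 1 and 3 held nearly all of the SP level, replicates 2 and 4 were low but above every NSP library, and the groups did not overlap. Its log2 fold change was 6.23 ± 1.74 (limma-voom adjusted p = 0.0212), and the call ended without NSP replicate 1 (adjusted p = 0.0759) or NSP replicate 4 (0.0697).

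Of the 14 antigens of myeloid and antigen-presenting cells 8 were tested, 6 were higher in SP, and CD68 and CD1D did not pass. The share of higher genes among all tested genes was 17.7%. Among the tested antigens 4 were over the minimum in all 8 libraries, and 2 of these were higher, against 14.7% of all genes with that property. CD48, a GPI-anchored SLAM family ligand of CD244 and CD2 found on most leukocytes, held the most SP reads of them, at 204, 271, 496 and 92.7 CPM, against 0.045, 0, 0.0499 and 1.21 CPM in NSP. SP replicate 3 was the highest and replicate 4 the lowest, still far above all NSP libraries, where 25 of 27 reads came from replicate 4. Its log2 fold change was 11 ± 1.80 (limma-voom adjusted p = 0.00152). CD101, an immunoglobulin-family protein of dendritic cells and tissue T cells, held 47.3, 79.5, 85.5 and 33.9 CPM in the SP libraries and 0.045, 0.831, 0 and 0 CPM in the NSP libraries, with 18 of 19 NSP reads in replicate 2 (9.57 ± 1.297, adjusted p = 0.000578). The receptor and ligand of the CD48 and CD244 pair both rose.

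CD80 and CD86, the ligands of CD28 on antigen-presenting cells, were both higher in SP. CD80 stood at 48.7 ± 13.96 CPM over the SP libraries and 3.13 ± 1.4 CPM over the NSP libraries (log2 fold change 4.03 ± 0.46, limma-voom adjusted p = 0.000286). It was over the minimum in every NSP library. CD86 stood at 19.1 ± 12.4 CPM in SP against 13 NSP reads in all (7.34 ± 1.39, adjusted p = 0.00317). CD80 was highest in SP replicate 3 and CD86 in SP replicate 1. CD84, a SLAM family receptor of myeloid cells, platelets and lymphocytes, ranged from 0.696 CPM in SP replicate 4 to 15.59 CPM in replicate 3, with 3 NSP reads, for a ratio of 234 (95% counting interval 79.6 to 1137, adjusted p = 0.00800).

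CD14, the lipopolysaccharide co-receptor of monocytes, was measured in all libraries, at 25.0, 61.8, 101 and 142 CPM in the SP libraries and 10.7, 5.91, 9.08 and 10.2 CPM in the NSP libraries. Its level in SP replicate 4 was the highest and in replicate 1 the lowest, the reverse of CD48 and CD101 for replicate 4, and the groups did not overlap (log2 fold change 2.95 ± 0.60, limma-voom adjusted p = 0.00463). CD68, a lysosomal glycoprotein abundant in macrophages but present in many cells, held 42.2, 47.0, 28.7 and 33.4 CPM in the SP libraries and 21.8, 14.9, 32.9 and 19.5 CPM in the NSP libraries. The groups overlapped because NSP replicate 3 exceeded SP replicate 3, and the test did not pass (0.81 ± 0.31, 95% interval 0.13 to 1.48, adjusted p = 0.0692). Without NSP replicate 3 the adjusted p of CD68 was 0.0384, and with quality weights 0.0111.

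CD1 proteins present lipid antigens to T and natural killer T cells. CD1D, the form that most cell types can carry, stood at 6.85, 9.66, 12.7 and 23.2 CPM in the SP libraries and 8.19, 5.82, 4.74 and 3.43 CPM in the NSP libraries, with overlapping groups. SP replicate 4 was the highest. The change of 1.12 ± 0.47 (95% interval 0.07 to 2.16) did not pass (limma-voom adjusted p = 0.0992), but did without SP replicate 1 (0.0445). CD1B had 45 reads, CD1C 10 and CD1E 14, all in SP, and CD1A none. These genes are close copies of each other, so reads could be split among them, and their values are uncertain.

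CD93, the tested antigen of the vascular group, a C-type lectin-like receptor of endothelial cells and some myeloid cells, stood at 56.1, 150.0, 219.7 and 572 CPM in the SP libraries and 0.405, 0.0923, 2.29 and 1.64 CPM in the NSP libraries. SP replicate 1 was the lowest and replicate 4 the highest, in the same order as the summed endothelial markers, which held 995.1, 3339, 3828 and 9347 CPM in these libraries. Its groups did not overlap, and the log2 fold change was 8.12 ± 1.60 (limma-voom adjusted p = 0.00387). The part of endothelial RNA in this difference was not tested. CD36, the scavenger receptor and fatty acid transporter of capillary endothelium, macrophages and platelets, was nearly absent, at 1.63, 0.465, 0.968 and 0.209 CPM in the SP libraries and 0.045, 0, 0.599 and 0.0966 CPM in the NSP libraries, and was not tested.

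**Figure D2:**
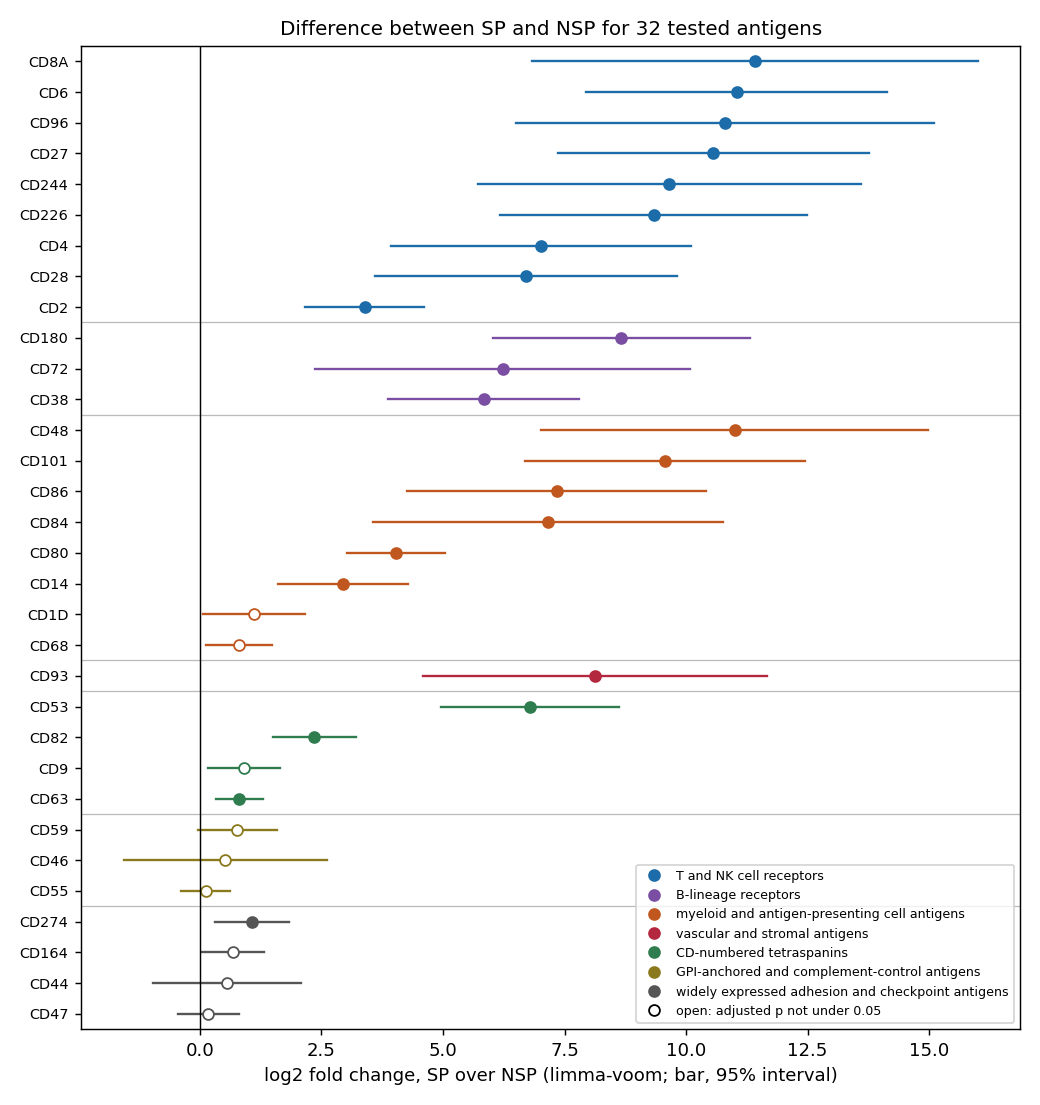
Log2 fold change of SP over NSP for 32 of the 33 tested antigens with 95% intervals from limma-voom, coloured by role, with open points where the adjusted p is not under 0.05. Antigens of T, NK and B cells lie far to the right with wide intervals, and the widely shared antigens lie near 0; for antigens with few or no NSP reads, such as CD96 and CD226, the plotted value depends on the offset added to counts.

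Of the 4 CD-numbered tetraspanins CD53, CD63 and CD82 were higher in SP and CD9 was not called. All 4 were over the minimum in all 8 libraries, a property with which 14.7% of genes were higher and 12% lower. CD63, a tetraspanin of late endosomes and exosomes, had the highest level of all the antigens in both groups per length of exon, at 1582 CPM per kb in SP and 895 CPM per kb in NSP. It stood at 1269, 1046, 1290.4 and 1614 CPM in the SP libraries and 859, 723, 624 and 747 CPM in the NSP libraries. Every SP library was above every NSP library, by a small margin beside the leukocyte antigens. The log2 fold change was 0.82 ± 0.22 (limma-voom adjusted p = 0.0173), and the call ended with upper-quartile factors (0.0534) and without NSP replicate 2 (0.0543) or NSP replicate 4 (0.0545). The corrected p in the authors' deposited table was 0.219 for CD63.

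CD9, a tetraspanin of epithelial cells, platelets and exosomes, was second per length at 584 CPM per kb in SP and 307 in NSP. It held 556, 1084, 767 and 1377 CPM in the SP libraries and 722, 378, 349 and 537 CPM in the NSP libraries. The groups overlapped through SP replicate 1, which lay below NSP replicate 1. CD9 missed the threshold at 0.91 ± 0.34 (95% interval 0.17 to 1.66, limma-voom adjusted p = 0.0626). Without SP replicate 1 the change was 1.14 (adjusted p = 0.0232), and with quality weights the adjusted p was 0.0477.

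CD82, a tetraspanin known as a suppressor of metastasis, rose more than CD63. It stood at 92.7, 192, 229.7 and 349.7 CPM in the SP libraries and 40.4, 30.4, 37.6 and 45.3 CPM in the NSP libraries, without overlap and with SP replicate 4 the highest (log2 fold change 2.35 ± 0.38, limma-voom adjusted p = 0.0015). CD53, the leukocyte tetraspanin, held 236, 224, 486 and 98.2 CPM in the SP libraries and 1.75, 1.11, 2.64 and 3.24 CPM in the NSP libraries. SP replicate 3 was the highest and replicate 4 the lowest, the pattern of CD48, with no overlap (6.79 ± 0.83, adjusted p = 0.000366). Of 13 tested tetraspanins with other symbols, 4 were higher and 2 lower, against 17.7% and 13% of all tested genes, with a median log2 fold change of 0.68. TSPAN12, a co-receptor in Norrin signalling of vessels, was at 3.60, TSPAN2 at 9.37, TSPAN33 at -3.62 and TSPAN7 at -1.48, while TSPAN18 had 3 NSP reads and a ratio of 1169 (95% counting interval 399.5 to 5669.8).

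None of the 3 antigens that shield cells from complement was called in either direction by limma-voom, against 17.7% higher and 13% lower among all tested genes. Their summed level was 456.9 to 798.0 CPM in SP and 479.6 to 578.2 CPM in NSP. CD55, the decay-accelerating factor, stood at 532, 764, 429 and 510.1 CPM in the SP libraries and 538, 452, 550.5 and 474 CPM in the NSP libraries. SP replicate 2 was the highest and replicate 3 the lowest of all 8 libraries. The change was 0.12 ± 0.23 with a 95% interval of -0.39 to 0.63 (limma-voom adjusted p = 0.725), and its sign turned to -0.06 with upper-quartile factors and -0.04 without SP replicate 2. Per length, CD55 came after CD63 and CD9 in both groups, at 276 CPM per kb in SP and 249 in NSP.

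CD59, the inhibitor of the membrane attack complex, held 36.7, 33.8, 28.1 and 87.5 CPM in the SP libraries and 24.3, 27.1, 27.3 and 18.2 CPM in the NSP libraries. Every SP library was above every NSP library, narrowly so for SP replicate 3, while SP replicate 4 stood apart. The change of 0.77 ± 0.37 (95% interval -0.03 to 1.58) did not pass (limma-voom adjusted p = 0.135). CD46, the membrane cofactor protein, was close to the minimum at 2.72, 0.569, 0.215 and 0.696 CPM in the SP libraries and 0.27, 0.692, 0.299 and 0.966 CPM in the NSP libraries, with overlapping groups (0.52 ± 0.94, adjusted p = 0.709; -0.13 without SP replicate 1). Among 8 tested complement components and inhibitors of other names, 2 were higher and 1 lower, against 17.7% and 13% of all tested genes, with 1 higher under 8 of the other settings and 3 without SP replicate 1. The alternative pathway stabiliser CFP was at 2.90 and the classical pathway protease C2 was at -3.07.

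Of the 4 adhesion and checkpoint antigens that many cell types carry, only CD274 passed, and all 4 had overlapping groups. All 4 were over the minimum in all 8 libraries, and 14.7% of genes with that property were higher. CD44, the hyaluronan receptor, stood at 867, 328, 914 and 146 CPM in the SP libraries and 216, 177, 1052 and 198 CPM in the NSP libraries. SP replicates 1 and 3 and NSP replicate 3 were high, and the remaining libraries ranged from 145.8 to 328.1 CPM. The change of 0.55 ± 0.69 had a 95% interval of -0.97 to 2.08 (limma-voom adjusted p = 0.577). The SDs of 385 CPM in SP and 428 CPM in NSP were larger than the difference between the means, 564 and 411 CPM.

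CD274, which encodes PD-L1, the ligand of the inhibitory receptor PD-1, held 84.4, 91.0, 74.96 and 39.8 CPM in the SP libraries and 54.7, 27.0, 33.7 and 24.8 CPM in the NSP libraries. SP replicate 4 lay below NSP replicate 1, and the other SP libraries were above all NSP libraries. Its log2 fold change of 1.07 ± 0.34 passed narrowly (limma-voom adjusted p = 0.0379). The call ended with median-ratio factors (0.0527), with upper-quartile factors (0.0729), with no filter (0.0501) and without SP replicate 1, 2 or 3 or NSP replicate 2, 3 or 4, where it reached 0.116. The authors' deposited table gave CD274 a corrected p of 0.161.

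CD164, a sialomucin involved in adhesion, stood at 232, 201, 223 and 100.3 CPM in the SP libraries and 106.2, 105, 136 and 105 CPM in the NSP libraries. SP replicates 1 to 3 were above all NSP libraries, and SP replicate 4 was below all of them. The change of 0.68 ± 0.29 (95% interval 0.05 to 1.31) did not pass (limma-voom adjusted p = 0.0974), whereas it was 0.83 without SP replicate 4 (adjusted p = 0.00705) and 0.88 with quality weights (0.00596). CD47, the signal that protects cells from phagocytosis, held 75.5, 35.9, 57.4 and 38.1 CPM in the SP libraries and 42.4, 38.7, 50.3 and 45.3 CPM in the NSP libraries, with the NSP libraries within the SP range. Its change was 0.17 ± 0.28 (95% interval -0.45 to 0.80, adjusted p = 0.674), or -0.01 with upper-quartile factors and -0.03 without SP replicate 1.

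**Figure D3:**
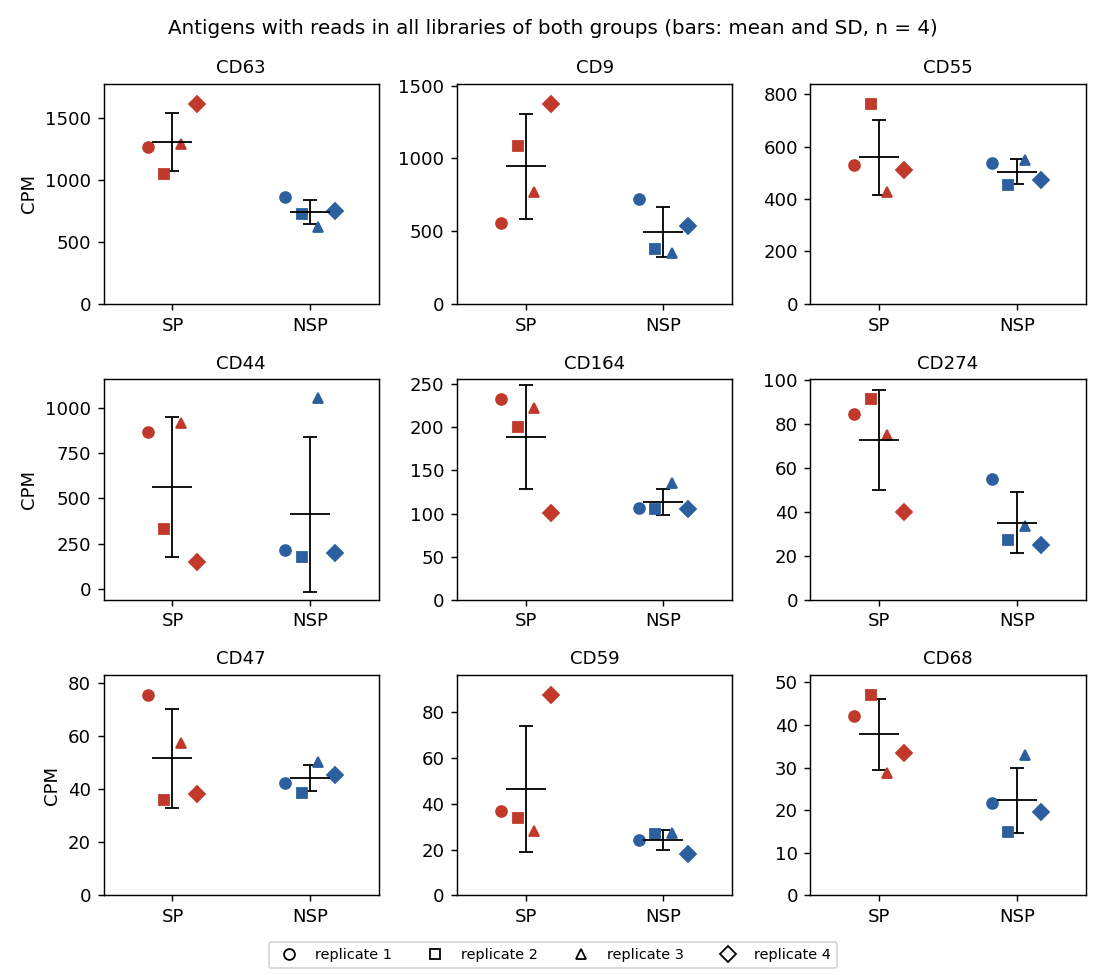
CPM of 9 selected antigens with reads in every library, on linear axes with 1 panel per antigen, as points by replicate with the mean and SD over 4 libraries. Others with reads in every library are not shown, among them CD14, CD2, CD53, CD80 and CD82, which were higher in SP. CD63 separates the groups, CD44 is high in SP replicates 1 and 3 and NSP replicate 3, and CD59 is high in SP replicate 4 alone.

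The SP libraries differed from each other in which antigens they held. Of 17 leukocyte antigens, CD53 and those nearly absent from NSP, 14 were highest in SP replicate 3 and 3 in replicate 1, CD72 and CD86 among them. The lowest library was replicate 4 for 8, replicate 1 for 5 and replicate 2 for 4 of them. The highest level was 2.18 times the lowest for CD38 and 22.4 times for CD84, with a median of 5.17 over these 17. CD14, CD1D, CD82 and CD93 had the order replicate 1, 2, 3, 4 from low to high, as the endothelial marker sum did, an order held by 4 of 33 tested antigens and 10.6% of all tested genes. CD101, CD226, CD244, CD38, CD48, CD80, CD84 and CD96 had the order of the T cell and myeloid marker sums. This order ran from replicate 4 through 1 and 2 to 3, and 4.84% of tested genes shared it. The myeloid sum was mostly the listed marker LAPTM5, with 670.6 of 745.3 CPM in SP replicate 4. Of the other listed myeloid markers, CSF1R and SPI1 had the order replicate 1, 2, 4, 3 from low to high. FCER1G was lowest in replicate 4, with replicate 2 below replicate 1.

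CD27, CD28, CD4, CD6 and CD8A followed the order replicate 1, 4, 2, 3 from low to high, shown by 3.31% of tested genes, and the summed stromal markers had it too (6 of 7 listed genes in the table; 212.8 to 384.3 CPM in SP, 36.8 to 53.8 in NSP). The T cell marker sum differed from this order only in SP replicates 1 and 4, which lay close, at 402.5 and 362.4 CPM. The stromal sum held 212.8 and 223.6 CPM there. CD47, CD72 and CD86 shared the order of the melanocyte marker sum (4 of 4 genes; 1634 to 11672 CPM in SP, 90.6 to 243.3 in NSP), from replicate 2 through 4 and 3 to 1, which 3.09% of tested genes had. These orders rest on 4 libraries and are descriptions. CD63 was the antigen with the most reads in 6 of the 8 libraries. The 3 antigens with the most reads took 45.2% to 63.2% of the antigens' CPM in SP and 76.2% to 79.8% in NSP, where 15 to 20 antigens were over the minimum, against 34 or 35 in SP.

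**Figure D4:**
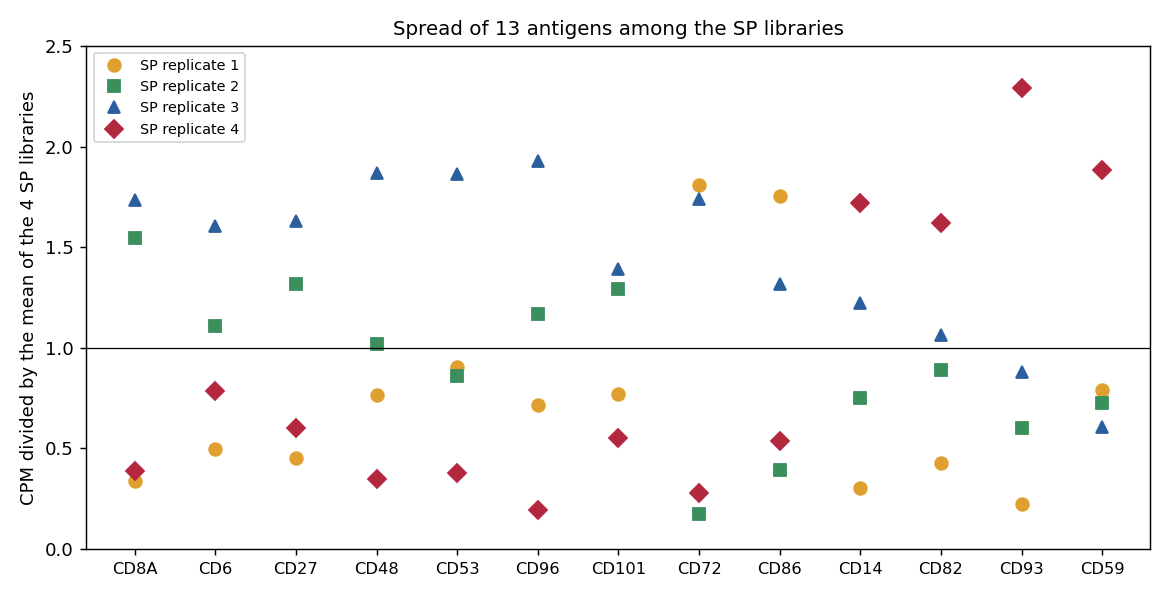
CPM of 13 antigens in each SP library divided by the mean of the 4 SP libraries, with 1 symbol per replicate and a line at 1; the antigens were picked after their values were seen. CD8A, CD6, CD27, CD96, CD101, CD48 and CD53 peak in replicate 3, CD72 and CD86 in replicate 1, and CD14, CD82, CD93 and CD59 in replicate 4.

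CD molecules whose genes carry other symbols were counted for comparison, against 17.7% higher and 13% lower among all tested genes. In the leukocyte list all 14 tested genes were higher in SP, including the chemokine receptor CXCR4 (6.45), the SLAM family receptor SLAMF6 and the macrophage growth factor receptor CSF1R (4.32). Of 14 vascular and stromal genes 13 were higher, among them the peptidase MME (3.54), the endothelial adhesion gene PECAM1, and VCAM1, with 3 NSP reads and a ratio of 711 (95% counting interval 243 to 3449). The epithelial and broad list ran the other way, with 10 of 19 lower, 1 higher and a median log2 fold change of -1.22. There the growth factor receptor EGFR was at -2.96 and the integrin subunits ITGA2 and ITGAV at -2.30 and -2.34, while the cytokine receptor subunit IL6ST was at 1.20. All 19 of these were over the minimum in every library, against 3 of 14 leukocyte genes and 3 of 14 vascular and stromal genes. The other tested genes of the leukocyte and vascular lists needed SP libraries to pass the filter, so the counts of these lists are not alike. The difference between the epithelial and broad list and the CD-numbered antigens was not tested.

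Most tested genes that act with the T cell antigens were also higher in SP. Of 16 tested genes of T cell receptor signalling 15 were higher in SP, including the zeta chain CD247 (10.94) and the adaptors LCP2 (6.99) and RHOH (10.93), and none was lower (17.7% and 13% of all tested genes). Only 3 of the 16 were over the minimum in all 8 libraries, with 2 higher and a median log2 fold change of 1.35. The exception, named after its values were seen, was SH2D1A, the adaptor of SLAM family receptors, at 10.5 ± 5.04 CPM over the SP libraries and 23.6 ± 10.02 CPM over the NSP libraries (log2 fold change -1.14 ± 0.50, limma-voom adjusted p = 0.11). Among ligands and partners of the CD28 and B7 families 3 of 4 tested genes were higher. These 3 needed SP libraries to pass the filter, as only 1 of the 4, VTCN1, was over the minimum in all 8 libraries. The activating receptor ICOS was at 7.44, CTLA4, the inhibitory receptor for CD80 and CD86, had 1 NSP read and a ratio of 912 (95% counting interval 163.2 to 36070.4), and TIGIT, which shares ligands with CD226 and CD96, was at least 350.1-fold higher with no read in NSP. VTCN1, a B7 family ligand of epithelial cells, was not called (-0.19). As with the antigens, genes absent from NSP could be tested only where SP was high. In the authors' deposited table, 22 of the 40 antigens had a corrected p under 0.05, all higher in SP, and CD274 and CD63 are the antigens called here but not there.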

How the data were processed

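Per the labels' protocols, 4 SP and 4 NSP samples of rabbit limbal epithelial cells were sequenced by Ion Proton. The authors deposited a single fixed-width text table with 20922 gene entries and 163 fields of 8 characters in 6 stacked blocks. Its values touch, so it was read by character position. Per the file headers the fields name the group and no sample, and libraries are numbered in column order. Which animal each is, and whether numbers match between groups, is not known here. The unit used is the deposited whole-number count of exon reads, of which group means recomputed here differed from the deposited means by at most 0.05. The fold changes and corrected p-values of an EDGE test were deposited by the authors, per the file headers. Aligner, counting tool, genome build and annotation were not given in the sources used here, and 143 other per-library fields were not used. No coordinates are given.

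Library sizes were scaled with TMM factors computed here (trims of 30% and 5%). Genes were kept with at least 0.508 CPM (10 reads in the median library) in 4 libraries and 15 reads in all. They were tested with limma-voom (limma 3.58.1, R 4.3.3, offset 0.5 reads, group as the only term). Other steps used Python 3.11.15 with NumPy 2.4.6, SciPy 1.17.1, pandas 2.3.3 and matplotlib 3.10.9. For genes without an NSP read, the mean SP CPM is set against 3 reads over the NSP group, and ratios of reads pooled over each group, for 1 to 3 NSP reads, carry an exact 95% counting interval. No source used here mentions molecular tags on the reads, so floors and intervals cover counting error only. Depths of 15553295 to 23529101 reads set the precision of low values, and the NSP libraries are deeper.

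Values in all 8 libraries were to be given for the 4 antigens per role with the highest mean CPM and for any with overlapping groups or a fitted fall. Of each of the 7 comparison lists, up to 3 genes per direction with the smallest p are named. Some genes that these rules name are left out of the text and stayed in all tests and counts. The antigens, lists and tests were chosen with earlier results of these data known. The settings varied were scaling (median-ratio or upper-quartile factors), the filter (none, or 10 reads in 4 libraries), the model (limma-trend, quality weights) and the libraries, each left out in turn.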

Additional observations from a re-analysis of the deposited data

Results flagged for a closer look

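The groups of 4 libraries were searched for 1 library far from the rest by Dixon's ratio at its 95% critical value. The search covered 51 groups of tested antigens with a read in each of the 4 libraries. Groups with a library without a read are not covered, among them the NSP groups of CD101, CD180, CD48, CD6 and CD8A. Nearly all NSP reads of these 5 antigens fell in 1 library. Chance marks about 1 in 20 such groups, and 3 were found. CD44 stood at 1052 CPM in NSP replicate 3, against 177.4 to 215.9 CPM in the other NSP libraries. CD164 stood at 136 CPM in NSP replicate 3, against 105 to 106.2 CPM in the others. CD59 stood at 87.5 CPM in SP replicate 4, against 28.1 to 36.7 CPM in the other SP libraries.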

How the results depend on the processing

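The number of antigens higher in SP was 24, and 23 with median-ratio factors, 22 with upper-quartile factors, 23 with no filter, 24 with a filter of 10 reads in 4 libraries, 24 with limma-trend and 27 with quality weights. It ranged from 21 to 25 when 1 library was left out, and no antigen was called lower under any of these. Fitted changes of 3 antigens that were not called turned sign. CD47 was at -0.0120 and CD55 at -0.0630 with upper-quartile factors. With single libraries left out, CD46 ranged from -0.13 (without SP replicate 1) to 1.08, CD47 from -0.0315 (without SP replicate 1) to 0.335, and CD55 from -0.0402 (without SP replicate 2) to 0.239. Limma-trend, which adds 0.5 CPM before the logarithm, lowered the log2 fold changes of 17 called antigens with few NSP reads (shifts of -1.04 to -4.43), so the size of these changes depends on the offset. Leaving out 1 library moved the fold changes of some called antigens by over 1.5 times while the call held, except for CD72, with log2 shifts from -0.847 to 1.16 among those named. These include CD72 (without SP replicate 2 or NSP replicate 1, 2, 3 or 4), CD84 (SP replicate 4, NSP replicate 2), CD93 (SP replicate 4, NSP replicate 2), CD8A (NSP replicate 1), CD101 and CD38 (NSP replicate 2), CD48 and CD86 (NSP replicate 2 or 4), CD4 (NSP replicate 3), and CD180 and CD6 (NSP replicate 4). Quality weights moved 6, among them CD180, CD28, CD48, CD6 and CD86, by -1.16 to 0.827. No paired analysis was possible because the columns carry no replicate numbers, so that the numbers in the sample titles, which run from 1 to 4 in both groups, cannot be tied to columns. The count of higher adhesion and checkpoint antigens, 1 in the text, was 0 with median-ratio or upper-quartile factors, with no filter and without 6 of the single libraries, and 2 with quality weights and without SP replicate 4. Of the epithelial and broad CD molecules 1 was higher, against 2 with quality weights and 3 without SP replicate 4. Of T cell receptor signalling genes 1 was lower without NSP replicate 2, against 0. The count of higher complement genes was 2, and 1 with the filter of 10 reads in 4 libraries and without any library except SP replicate 1, without which it was 3. Depth limits the antigens with few NSP reads, whose ratios and bounds cover counting error and not the spread between libraries.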

Other observations

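NSP reads of some leukocyte antigens were concentrated in single libraries. The check covered 12 called antigens with more than 3 NSP reads and fewer than 4 NSP libraries over the minimum, and 5 were so concentrated. Leukocyte antigens over the minimum in all NSP libraries were spread more evenly. The top NSP library held 36.6% of the NSP reads of CD53, 35.6% of CD2, 36.7% of CD80 and 31.2% of CD14. More than 90% of the NSP reads fell in 1 library for CD8A (6 of 6 in replicate 1), CD6 (9 of 9 in replicate 4), CD180 (17 of 18 in replicate 4), CD48 (25 of 27 in replicate 4) and CD101 (18 of 19 in replicate 2). Of the 15 antigens over the minimum in all libraries, the highest NSP library was replicate 3 for 7 (CD164, CD44, CD47, CD55, CD59, CD68 and CD80), replicate 1 for 5, replicate 4 for 3 and replicate 2 for none. NSP replicate 3 also had the lowest sum of epithelial markers in its group, at 17795 CPM. The listed markers did not move together there. KRT15, KRT12, KRT3, EPCAM and CDH1 were lowest in this NSP library, whereas TP63 and PAX6 were highest. TP63 stood at 391.3 CPM, against 189.3 to 262.4 in the other NSP libraries, and PAX6 at 397.8, against 251 to 303.7.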
